A study of Rattus norvegicus with 6 samples.

Results

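GABA-A receptors are chloride channels built from several subunits around a central pore, and they open when they bind the transmitter GABA. Alpha and beta subunits together form the GABA binding sites, and the alpha and gamma subunits set the drug sensitivity, the kinetics and the place of the receptor on the cell. In sensory neurons of the dorsal root ganglia (DRG), which keep a high chloride concentration in adulthood, opening of these channels depolarizes the cell and its central terminals, where GABA released in the spinal cord limits transmitter release. The genes described here are 7 subunit genes, namely the alpha subunit genes Gabra2, Gabra3, Gabra4 and Gabra5, the beta subunit genes Gabrb1 and Gabrb2 and the gamma subunit gene Gabrg1, out of 43350 gene rows in the table. Each was found by its symbol, and where several rows carried that symbol the protein-coding row with the most reads was taken.

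RNA-seq was performed on ipsilateral lumbar 4-6 DRG of male Sprague-Dawley rats 11 days after surgery on the left sciatic nerve. The CCI group (chronic constriction injury) and the sham group had 3 libraries each. In CCI the nerve was loosely ligated, and in sham surgery it was exposed without ligation according to the methods, while in the labels the treatment of these rats is entered as none. The methods describe a single rat per sample, whereas the labels speak of a pooled sample at library preparation. No other treatment is named for either group. Rats with the behaviour looked for in their group were taken, so the samples were selected after testing.

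The libraries held 75423546 to 87615743 counted reads. Pan-neuronal markers summed to 13429 to 15270 CPM (counts scaled to the library size, per 1000000 reads) in the CCI group and to 16475 to 17174 in the sham group, with 3 neurofilament genes (Nefl, Nefm and Nefh, set apart after their values were seen) at 6952 to 8696 and 10396 to 11770 CPM and the other 6 markers at 6477 to 6832 and 5405 to 6444 CPM. So the lower sum in the CCI group came from the neurofilament genes. The sum of the rest was higher in each CCI library than in any sham library, by little at its closest. These other markers did not move alike. Their log2 fold changes were 0.31 (Tubb3), 0.25 (Prph), 0.05 (Uchl1), 0.04 (Elavl4), -0.24 (Rbfox3) and -0.39 (Snap25). The skeletal muscle markers summed to 394 CPM in sham 1 against 8.40 to 50.4 CPM in the other libraries. Spinal cord tissue was looked for with 8 markers. Of these, Slc32a1, the vesicular GABA transporter, had 0 reads in all 6 libraries, and 6 of 8 lay below 1 FPKM. The remaining 2, Gfap and Mog, which glia of the ganglion and nerve can also express, lay higher in each CCI library than in any sham library (log2 fold changes 1.01 and 0.32), with Gfap past the limits used below. The 8 markers summed to 30.2 to 45.8 CPM in the CCI group and 19.7 to 22.7 CPM in the sham group, and their part in the results below was not tested.

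All 7 genes passed the filter on low values (a mean of at least 0.5 FPKM, reads per kilobase of transcript, scaled in the same way). They were tested with edgeR among 26663 rows, and a gene was called at the limits used in the study, an unadjusted p under 0.05 with a change of 0.58 or more on the log2 scale in either direction. Gabra5 and Gabrb1 were higher in the CCI group and 0 of 7 genes were lower. Over all rows tested, 2.57% passed these limits as higher and 1.26% as lower. At an unadjusted p under 0.05 alone, 2 genes were higher and 1, Gabra4, was lower, where all rows gave 5.57% and 5.18%. No member reached an adjusted p (Benjamini-Hochberg over all rows) under 0.05 with edgeR's quasi-likelihood test, a level that 0.0938% of the rows reached. With edgeR's exact test and with DESeq2, 1 member, Gabra5, did, where 231 and 751 of the 26663 rows did. The 3 CCI libraries lay above the 3 sham libraries for 2 genes and below them for 1, shares that were 8.63% and 8.7% over all rows. The median log2 fold change was 0.0012 over the 7 genes and 0.0055 over all rows. In bulk tissue, fewer cells of a type and less RNA per cell cannot be told apart.

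**Figure D1:**
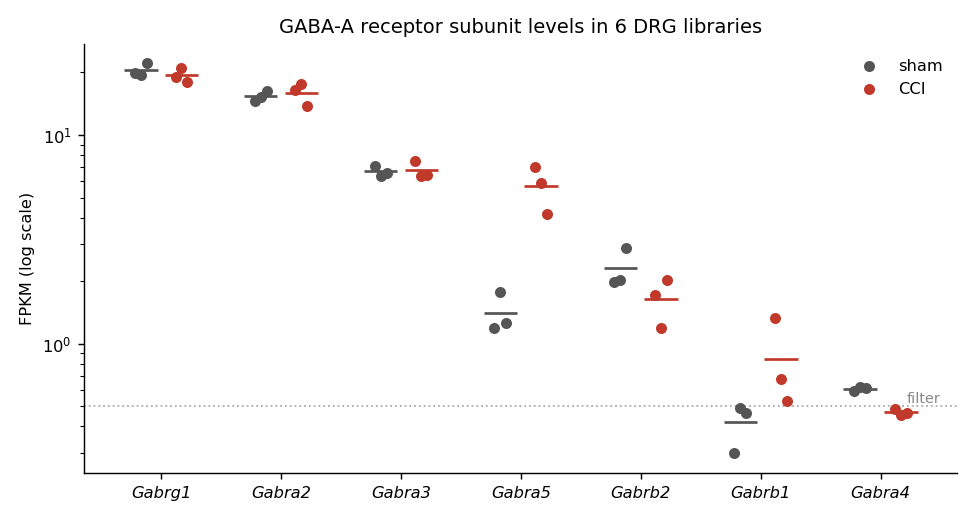
FPKM of each subunit gene (log axis) in the 3 sham libraries (grey) and the 3 CCI libraries (red), each point a library and each line a group mean, with the filter of 0.5 FPKM dotted. Gabra5 rose from 1.19 to 1.77 FPKM in the sham group to 4.18 to 7.02 FPKM in the CCI group, while Gabrg1, Gabra2 and Gabra3 overlapped between groups.

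Per length of transcript, the genes fell into a steady order that Gabra5 crossed. Gabrg1 had the highest level in every library, with 18.1 to 22.1 FPKM, and Gabra2 followed with 13.8 to 17.6 FPKM. These neighbours kept their order in all 6 libraries, although their ranges over the libraries nearly met. Their order rests on the row lengths, 1.91 kb for Gabrg1 and 13.2 kb for Gabra2. In CPM, which leaves length out, Gabra2 (181 to 231) lay above Gabrg1 (34.1 to 42.5). Gabra3 was the third in every library, with 6.37 to 7.51 FPKM. In the sham group Gabrb2 (1.97 to 2.88 FPKM) lay above Gabra5 (1.19 to 1.77 FPKM), and in the CCI group Gabra5 (4.18 to 7.02 FPKM) lay above Gabrb2 (1.19 to 2.03 FPKM), without overlap in either group. The sham order rests on the row lengths, 3.68 kb for Gabra5 and 2.30 kb for Gabrb2. In CPM, Gabra5 had 4.37, 6.55 and 4.67 in sham 1, 2 and 3, and Gabrb2 had 4.53, 4.71 and 6.71. The CCI order held in CPM as well (15.2 to 25.7 for Gabra5, 2.71 to 4.63 for Gabrb2). The lowest places were held by Gabra4 and Gabrb1. Gabra4 (0.591 to 0.617 FPKM) was above Gabrb1 (0.297 to 0.492 FPKM) in each sham library, and Gabrb1 (0.532 to 1.33 FPKM) was above Gabra4 (0.452 to 0.487 FPKM) in each CCI library. This swap also rests on the row lengths, 4.86 kb for Gabra4 and 2.12 kb for Gabrb1. In CPM, Gabrb1 was above Gabra4 in CCI 1 (2.82 against 2.36) but below it in CCI 2 (1.44 against 2.18) and CCI 3 (1.12 against 2.23).

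Gabra5 encodes an alpha subunit known best from hippocampal receptors that lie outside synapses and carry a tonic current. It had the largest change among the 7 genes. Its levels were 25.7, 21.6 and 15.2 CPM in CCI 1, 2 and 3 and 4.37, 6.55 and 4.67 CPM in sham 1, 2 and 3. The lowest CCI library was more than any sham library, and CCI 1 was the highest of all. The means were 20.8 ± 5.31 CPM (SD, n = 3) in the CCI group and 5.19 ± 1.18 CPM (SD, n = 3) in the sham group. The log2 fold change was 2.00 (SE 0.24, 95% confidence interval 1.42 to 2.59), a 4.01-fold difference, with an unadjusted p of 0.000116 and an adjusted p of 0.0714 by edgeR's quasi-likelihood test. By p it was number 41 among the 26663 rows and by fold change number 187 from the highest. It stayed past the study's limits in all 16 alternative fits, and its log2 fold change lay between 1.82 and 2.21 when any 1 library was left out. The adjusted p depended on the tool, with 3.12e-14 by DESeq2 and 2.23e-08 by edgeR's exact test, and over all alternatives it ran up to 0.231.

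Sets of genes that mark other states moved beside Gabra5. The summed level of 9 injury-induced neuron genes, such as Atf3 and Npy, was 757, 535 and 466 CPM in CCI 1, 2 and 3, the order in which Gabra5 stood, and 189 to 194 CPM in the sham group. Macrophage markers summed to 253, 240 and 177 CPM in these CCI libraries, again in that order. In the sham group they summed to 100.6 to 122 CPM, and 5 of 9 were past the limits. The part of these changes in the Gabra5 difference was not tested. Without sham 1, the library with the high muscle markers, the Gabra5 log2 fold change was 1.89.

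The Gabra5 gene lies on the minus strand of chromosome 1 at 112833944 to 112947399, in the coordinates of the deposited table. Its row covers a transcript length of 3.68 kb and carries 2 names, Gabra5 and the predicted locus AABR07003500, so reads of both are counted together. Another row of that locus, 611 bases long on the opposite strand inside Gabra5, had 25, 10 and 0 reads in CCI 1, 2 and 3 and 0 reads in each sham library. These reads are few beside the 1158 to 2092 reads of the Gabra5 row in the CCI group and its 384 to 520 reads in the sham group. The assembled row of Luzp2, a leucine zipper protein gene, spans the whole of Gabra5 on the opposite strand. It had 4612 to 4864 reads in the CCI group and 3232 to 5837 in the sham group, a log2 fold change of 0.16 (SE 0.17, adjusted p = 0.809 by edgeR). The libraries mark the strand, but the strand setting of the counting is not given in the sources used here.

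Gabra5 and Gabrb1, the genes past the limits, differ in the base composition before their starts. Promoter windows from 250 bases before to 50 bases after the annotated start were available for 6 of the 7 genes (RefSeq, build GRCr8, which is not the build of the deposited coordinates). The windows of the pair are shown 5′ to 3′ on the strand of the gene, Gabra5 from chr1:117516557-117516856 and Gabrb1 from chr14:36902844-36903143, both on the minus strand. Capitals mark the motifs found, a GC box in Gabra5 and a CCAAT box in Gabrb1, each on the opposite strand.
Gabra5: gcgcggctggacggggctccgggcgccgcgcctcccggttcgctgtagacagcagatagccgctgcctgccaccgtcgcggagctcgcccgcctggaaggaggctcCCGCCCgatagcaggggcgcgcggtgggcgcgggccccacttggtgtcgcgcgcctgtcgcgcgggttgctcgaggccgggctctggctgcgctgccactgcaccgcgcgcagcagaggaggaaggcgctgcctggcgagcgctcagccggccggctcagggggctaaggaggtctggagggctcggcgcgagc
Gabrb1: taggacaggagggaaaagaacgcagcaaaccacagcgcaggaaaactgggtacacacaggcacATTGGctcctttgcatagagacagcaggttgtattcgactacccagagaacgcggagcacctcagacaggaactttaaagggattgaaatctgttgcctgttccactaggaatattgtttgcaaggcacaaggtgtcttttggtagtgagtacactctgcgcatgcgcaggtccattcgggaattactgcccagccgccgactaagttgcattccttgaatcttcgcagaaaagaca
The Gabra5 window is 76.3% G and C with 42 CpG dinucleotides, more than in 97.6% of the 33469 rat promoter windows on either measure, and the Gabrb1 window is 49.3% G and C with 11 CpG dinucleotides, where the median window has 51.7% and 7. The letters of 5 motifs were searched on both strands, allowing overlaps between motifs. The GC box GGGCGG was found in Gabra5 and in Gabra4 and is held by 33.1% of all windows. The CCAAT box (CCAAT) was found in Gabra3, Gabrb1 and Gabrg1 and is held by 37.5% of windows, and TATAAA was found in Gabra3 alone among the 6 windows and is held by 14.2%. The AP-1 site TGANTCA (7.33% of windows) and the cyclic AMP response element TGACGTCA (1.83%) were found in 0 of the 6 windows.

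Gabrb1 encodes a beta subunit, and its levels were low. They were 2.82, 1.44 and 1.12 CPM in CCI 1, 2 and 3 and 0.637, 1.06 and 1.003 CPM in sham 1, 2 and 3, which rest on 85 to 229 and 56 to 84 reads. CCI 1 stood well above the other CCI libraries, and CCI 3 exceeded sham 2 by little. The means were 1.79 ± 0.904 CPM (SD, n = 3) and 0.899 ± 0.229 CPM (SD, n = 3). The log2 fold change was 0.99 (SE 0.41, 95% confidence interval 0.01 to 1.98), with an unadjusted p of 0.0485 and an adjusted p of 0.459 by edgeR. Without CCI 1 it was 0.51 (unadjusted p = 0.183, adjusted p = 0.702 by edgeR), and the call was also lost without CCI 2 (1.13) or without sham 1, 2 or 3 (0.80, 1.13 and 1.08), where the unadjusted p alone missed its limit. With limma on log2(FPKM + 1) and log2(FPKM + 0.1) it was 0.36 and 0.80, the first short of both limits and the second of the p limit alone.

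**Figure D2:**
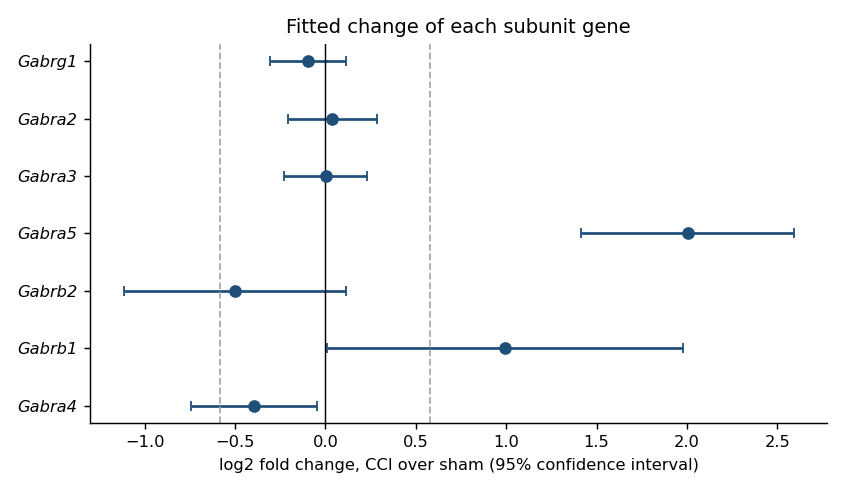
Log2 fold change of the CCI group over the sham group (horizontal axis) for each subunit gene, as fitted by edgeR, with 95% confidence intervals as bars and the limits of 0.58 in size dashed. Gabra5, at 2.00, has its whole interval above the limit, and the interval of Gabrb1 runs from 0.01 to 1.98.

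**Figure D3:**
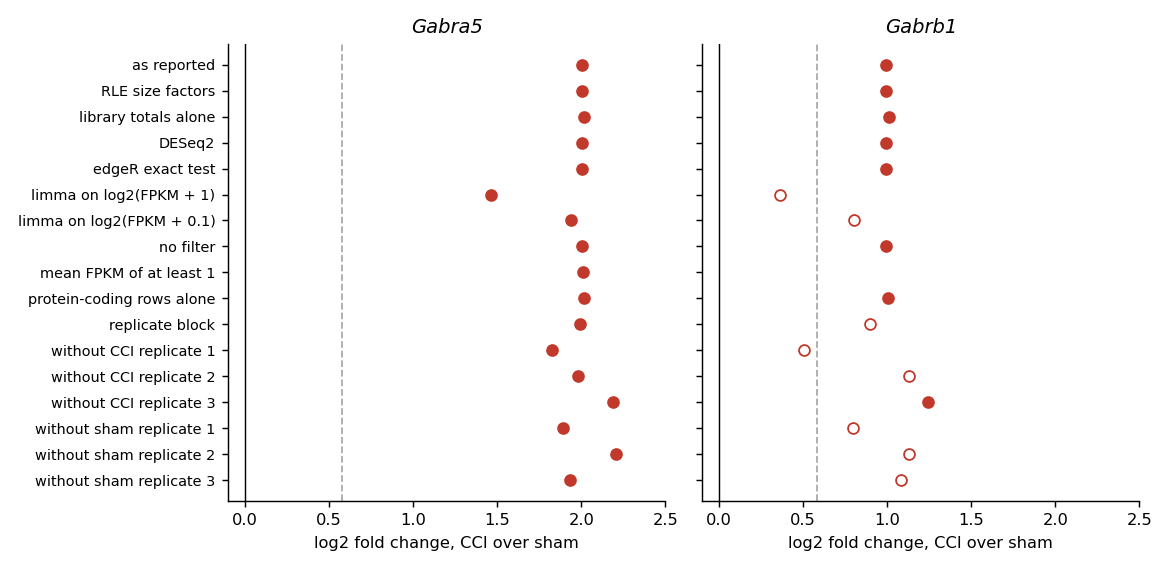
Log2 fold change (horizontal axes) of Gabra5 and Gabrb1 as reported and under each alternative fit (vertical axis), filled where p is under 0.05 and the change is at least 0.58 (dashed), open otherwise. Gabra5 is filled in every row, from 1.46 to 2.21, and Gabrb1 is open in 8 of its 15 alternatives and has no point at a mean of at least 1 FPKM, where it was filtered out.

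Gabrb2 encodes the other beta subunit described here, one widely used in the brain. Its levels were 3.94, 2.71 and 4.63 CPM in CCI 1, 2 and 3 and 4.53, 4.71 and 6.71 CPM in sham 1, 2 and 3. The groups overlapped, since CCI 3 lay above sham 1. The log2 fold change was -0.50 (SE 0.26, 95% confidence interval -1.12 to 0.12, adjusted p = 0.573 by edgeR). It moved to -0.31 without CCI 2 and to -0.30 without sham 3, and to -0.68 without CCI 3 and -0.60 without sham 1, with an unadjusted p over 0.05 in each. The ratio of Gabrb1 to Gabrb2 in FPKM was 0.779, 0.573 and 0.262 in CCI 1, 2 and 3 and 0.151, 0.243 and 0.162 in sham 1, 2 and 3. Each CCI library lay above each sham library, CCI 3 by little, which gave an exact two-sided permutation p of 0.1, the smallest that 3 against 3 libraries allow. This is 1 of 10 such sums, shares and ratios computed, and the adjusted p over them was 0.111.

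Gabra4, an alpha subunit of extrasynaptic receptors in the forebrain, was the only gene of the 7 with all CCI libraries below all sham libraries. It had 2.36, 2.18 and 2.23 CPM in CCI 1, 2 and 3 and 2.87, 3.02 and 3.02 CPM in sham 1, 2 and 3. The libraries of a group lay close together, with means of 2.26 ± 0.0935 CPM (SD, n = 3) and 2.97 ± 0.0901 CPM (SD, n = 3). The log2 fold change was -0.40 (SE 0.15, 95% confidence interval -0.75 to -0.05), with an unadjusted p of 0.0322 and an adjusted p of 0.408 by edgeR, and its size was under the limit of 0.58 in every alternative. Its mean of 0.538 FPKM was just above the filter, and it rests on 170 to 252 reads per library. Its unadjusted p was over 0.05 in 9 of 15 alternatives, among them 5 of the 6 that left out a library, all but the fit without CCI 1.

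Gabra2, Gabra3 and Gabrg1 had the highest FPKM of the 7 genes and did not pass the limits. Gabra2, an alpha subunit of synaptic receptors, had 218, 231 and 181 CPM in CCI 1, 2 and 3 and 192, 203 and 218 CPM in sham 1, 2 and 3. The CCI libraries held both the highest and the lowest value. Its log2 fold change was 0.04 (SE 0.10, 95% confidence interval -0.21 to 0.28, adjusted p = 0.937 by edgeR).

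Gabra3, an alpha subunit gene on the X chromosome, had 20.7, 17.5 and 17.6 CPM in CCI 1, 2 and 3 and 19.6, 17.7 and 18.4 CPM in sham 1, 2 and 3. The group means, 18.6 ± 1.81 CPM (SD, n = 3) and 18.6 ± 0.938 CPM (SD, n = 3), were the closest of the 7 genes. Its log2 fold change was 0.0012 (SE 0.10, 95% confidence interval -0.23 to 0.23, adjusted p = 0.997 by edgeR).

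Gabrg1 encodes a gamma subunit whose receptors respond weakly to classical benzodiazepines. It had 36.1, 39.8 and 34.1 CPM in CCI 1, 2 and 3 and 37.7, 37.2 and 42.5 CPM in sham 1, 2 and 3. The groups overlapped, with the highest value in sham 3. Its log2 fold change was -0.10 (SE 0.09, 95% confidence interval -0.31 to 0.12, adjusted p = 0.780 by edgeR). The intervals of these 3 genes leave out a change of 0.58 in either direction.

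Among the 4 alpha genes, Gabra5 held a larger share in each CCI library than in any sham library. Of their summed FPKM, Gabra5 made up 22.3%, 19.5% and 16.8% in CCI 1, 2 and 3 and 5.08%, 7.37% and 5.06% in sham 1, 2 and 3. The exact two-sided permutation p was 0.1, the smallest possible, and the adjusted p over the 10 values computed was 0.111. Gabra2 made up 52.3% to 58.0% in the CCI group and 62.0% to 65.8% in the sham group, a lower share at a level that was not called different, since the shares add up to the whole. The summed FPKM of the 4 alpha genes was 31.5, 30.3 and 24.9 in CCI 1, 2 and 3 and 23.4, 24.0 and 24.8 in sham 1, 2 and 3. CCI 3 exceeded sham 3 by little, and the sum over all 7 genes overlapped between groups (45.5 to 53.5 and 45.6 to 50.2 FPKM, exact permutation p = 0.4).

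The ratio of Gabra5 to Gabra3 within a library removes what both genes share, such as depth. In FPKM it was 0.934, 0.926 and 0.649 in CCI 1, 2 and 3 and 0.167, 0.277 and 0.190 in sham 1, 2 and 3. So, per length of transcript, Gabra5 came close to the level of Gabra3 in CCI 1 and CCI 2 and stayed far below it in each sham library. The row lengths were 3.68 kb for Gabra5 and 2.76 kb for Gabra3. In CPM, Gabra5 lay above Gabra3 in CCI 1 (25.7 against 20.7) and CCI 2 (21.6 against 17.5) and below it in CCI 3 (15.2 against 17.6). Its ratio to Gabra2 was 0.303 to 0.426 in the CCI group and 0.0769 to 0.116 in the sham group. Both ratios gave an exact permutation p of 0.1, the smallest possible, and an adjusted p of 0.111 over the 10 values computed. Gabra2 and Gabra3 differed little between groups (log2 fold changes 0.04 and 0.0012), so these ratios largely restate the Gabra5 difference.

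**Figure D4:**
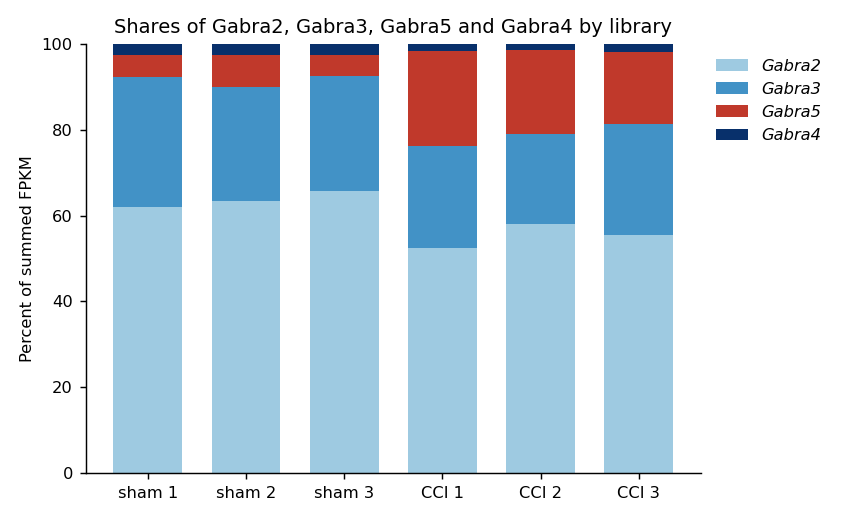
Share of Gabra2, Gabra3, Gabra5 and Gabra4 (percent of their summed FPKM, stacked to the whole) in each of the 6 libraries. The Gabra5 share is 5.06% to 7.37% in the sham libraries and 16.8% to 22.3% in the CCI libraries.

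Of the 7 genes, 4 lie in 1 cluster on chromosome 14, in the order Gabrb1 (38643385 to 39112600, minus strand), Gabra4 (39154529 to 39231695, plus strand), Gabra2 (39661117 to 39805951, plus strand) and Gabrg1 (39964588 to 40049354, plus strand). Gabrb1 and Gabra4 point away from each other across a gap of 41.9 kb, and their log2 fold changes were 0.99 and -0.40. The gap between Gabra4 and Gabra2 is 429 kb, and that between Gabra2 and Gabrg1 is 159 kb. Gabrb2 lies on chromosome 10 (27973681 to 28187565, plus strand) and Gabra3 on the X chromosome (152414615 to 152642531, minus strand). Thus the cluster held 1 of the 2 genes past the limits, and the other lies alone among the 7 on chromosome 1.

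Other assembled rows share names or ground with these genes. A row of 8.51 kb named Gabra2 on the opposite strand had 2224, 1458 and 814 reads in CCI 1, 2 and 3 and 3136, 1117 and 921 reads in sham 1, 2 and 3. It varied far more among libraries of a group than Gabra2 itself did, and its log2 fold change was -0.12 (SE 0.52, adjusted p = 0.965 by edgeR). A row named Gabrg1 follows the Gabrg1 row on the same strand after a gap of 111 bases. It held 1708 to 1970 reads in the CCI group and 1711 to 2232 in the sham group, with a log2 fold change of -0.03 (SE 0.10, adjusted p = 0.953 by edgeR). Beyond the end of Gabra3 a row of the same name, after a gap of 74 bases, had 223 to 297 reads in the CCI group and 306 to 375 in the sham group, with a log2 fold change of -0.27 (SE 0.18, adjusted p = 0.686 by edgeR). A second row of that name had 2 to 37 reads in all libraries. None of these 4 rows passed the limits, and 1 of them overlaps the member it is named for.

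The genes with the profile most like that of Gabra5 were sought among 13711 protein-coding rows, by the root-mean-square difference of log2(CPM + 0.1) centred on its mean over the 6 libraries. The nearest were Dsp (desmoplakin, of desmosomes, difference 0.20), Sox11 (a transcription factor of growing neurons, 0.22), Clec7a (the beta-glucan receptor of myeloid cells, 0.22), Serpina1 (a protease inhibitor, 0.27) and Flrt3 (an adhesion protein of axons, 0.29). Dsp had 22.9 to 59.8 CPM in the CCI group and 7.56 to 10.9 CPM in the sham group, and Sox11 had 6.88 to 16.0 CPM and 2.02 to 3.35 CPM. Of the 5, Sox11 is also in the list of injury-induced neuron genes.

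For Gabrb1 the nearest profiles were Gfap (an intermediate filament of glia, difference 0.18), Pvr (the poliovirus receptor, an adhesion protein, 0.19), Rassf10 (0.19), the predicted locus AABR07044631 (0.19) and Slc14a1 (a urea transporter, 0.20). Gfap had 35.1, 20.8 and 19.3 CPM in CCI 1, 2 and 3 and 10.8, 14.3 and 12.2 CPM in sham 1, 2 and 3. Like Gabrb1, for whose profile it was picked, it was highest in CCI 1. These likenesses rest on 6 libraries and describe the shape over them only.

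**Figure D5:**
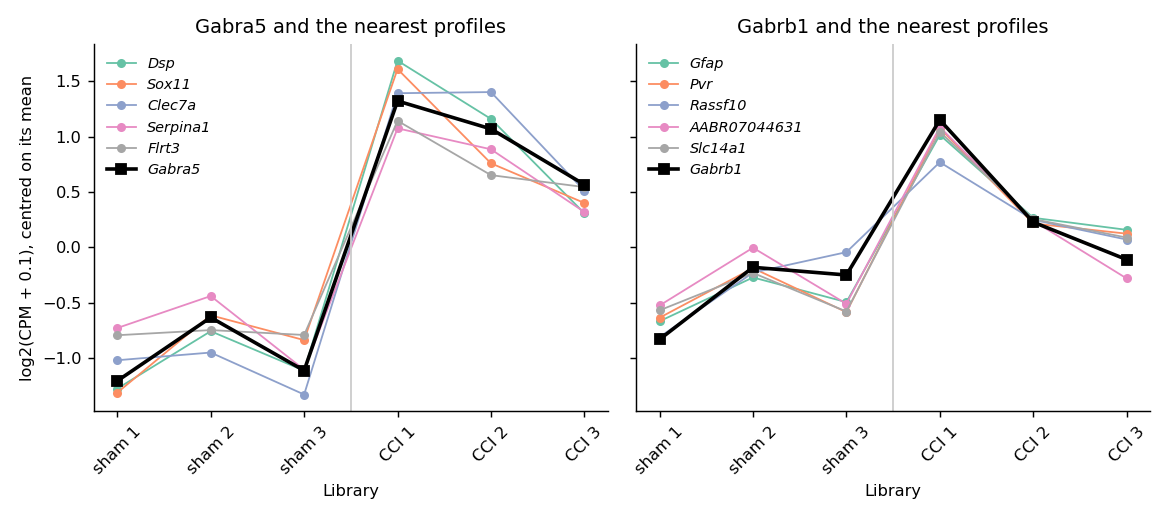
Profiles over the 6 libraries, as log2(CPM + 0.1) centred on each gene's mean, of Gabra5 (left) and Gabrb1 (right) in black with the 5 nearest protein-coding rows in colour. All lines on the left are higher in each CCI library than in each sham library, and those on the right peak in CCI 1. The coloured rows were picked for their likeness to the black line, so a shared shape follows from the choice.

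Around the receptor, genes that make, carry and break down GABA or place its receptors were looked at in the same fit. Of 63 genes in 9 lists, 58 were found and 38 passed the filter. Of these, 2 were past the limits as higher, Tspo among them, and 0 were lower, where 2.57% and 1.26% of all rows were. At an unadjusted p under 0.05 by edgeR, 5 of the 38 (13.2%) were higher and 10 (26.3%) lower, where all rows gave 5.57% and 5.18%. None of the 38 was at an adjusted p under 0.05, and their median log2 fold change was -0.04 against 0.0055 over all rows. Of 12 further GABA-A subunit genes, 3 passed the filter, with log2 fold changes from -0.47 to 0.10 and 0 past the limits, 2 of them with all CCI libraries below all sham libraries (8.7% of all rows) at an unadjusted p under 0.05 (5.18% of all rows as lower). The other 9 lay below the filter, 2 of them with 0 reads in every library.

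Tspo, a mitochondrial outer membrane protein linked to the making of neurosteroids that act on GABA-A receptors and abundant in macrophages, had 2.33 to 2.83 CPM in the CCI group and 1.501 to 1.59 CPM in the sham group. Its log2 fold change was 0.79 (SE 0.17, unadjusted p = 0.00291, adjusted p = 0.192 by edgeR). The macrophage markers given above also summed higher in each CCI library than in any sham library. Within the CCI group the orders differed, with 2.83, 2.33 and 2.78 CPM of Tspo in CCI 1, 2 and 3. The part of these markers in the Tspo difference was not tested. Dbi, the diazepam binding inhibitor, had 117 to 120 CPM in the CCI group and 106 to 111 CPM in the sham group, a log2 fold change of 0.13 and below the limit.

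The genes of GABA synthesis were low in the ganglion. Gad1 and Gad2, the glutamate decarboxylases, had at most 2.07 and 0.932 CPM in any library and did not pass the filter. For Slc32a1, 0 reads in a library allow a level of up to 0.0341 to 0.0394 CPM (3 reads, counting error only). Slc12a2 (NKCC1), which brings chloride into the neuron, had 175 to 220 CPM in the CCI group and 190 to 228 CPM in the sham group, with a log2 fold change of -0.11 (SE 0.11, adjusted p = 0.792 by edgeR). Slc12a5 (KCC2), which carries chloride out in central neurons, had at most 0.806 CPM and lay under the filter. The kinases that regulate these cotransporters, Wnk1 (log2 fold change -0.04) and Stk39 (0.19), were not called.

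The genes that place and traffic the receptor were all tested, and 0 of 17 passed the limits. At an unadjusted p under 0.05, 2 of them were higher and 6 lower, where all rows gave 5.57% and 5.18%. Nsf, an ATPase of membrane fusion that also binds beta subunits, had 449 to 487 CPM in the CCI group and 540 to 614 CPM in the sham group, with a log2 fold change of -0.28 (SE 0.07, adjusted p = 0.246 by edgeR). Ubqln1 (ubiquilin, -0.16), Trak2 (a transport adaptor, -0.22) and Gabarapl1 (-0.14) were also below the sham libraries in each CCI library, and Gabarap, the GABA-A receptor-associated protein, was above them by 0.15 on the log2 scale, on a row that also counts the reads of Ctdnep1. Lhfpl4, a protein of inhibitory synapses, had 78.7, 177 and 187 CPM in CCI 1, 2 and 3 and 157, 231 and 237 CPM in sham 1, 2 and 3, with a log2 fold change of -0.50 (SE 0.34, adjusted p = 0.686 by edgeR). Gabarapl2 (0.01) and Clptm1 (0.08) had p over 0.05. The GABA-B receptor genes, for the G protein-coupled receptors of GABA, had log2 fold changes of 0.01 (Gabbr1) and -0.22 (Gabbr2, adjusted p = 0.336 by edgeR), and Glrb, the beta subunit of the glycine receptor, had -0.30 (adjusted p = 0.317 by edgeR).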

How the data were processed

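The authors mapped clean reads (ribosomal RNA depleted, second strand marked with dUTP, paired ends) to the rat genome V101 with HISAT2 2.0, assembled transcripts with StringTie 1.3.0, per the labels and the methods, and deposited read counts per gene row. The deposited FPKM values are those counts divided by the library total and a row length, with 0 reads listed as 0.0001. Rows without a symbol (6849) held 5.37% to 5.72% of the counts.

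Counts of 3 CCI and 3 sham samples were tested with edgeR 4.0.16 (quasi-likelihood, TMM factors, no block) in R 4.3.3, over the 26663 rows with a mean of at least 0.5 FPKM. CPM values use the TMM library sizes. Alternatives were other scalings, DESeq2 1.42.0, edgeR's exact test, limma 3.58.1 on log2(FPKM + 1) and log2(FPKM + 0.1), other filters, a block and leaving out each library, with the rows tested kept. Ratios and shares were tested with an exact permutation test over samples.

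The members and lists were chosen with earlier results of these data known. Named are the members, pathway genes past the limits or with a mean of at least 20 FPKM, 5 pathway genes set in the plan (Slc12a2, Slc12a5, Gad1, Gad2 and Slc32a1) and the 5 nearest profiles. The plan also named the other GABA-A subunit genes, which are given here as counts only. A further pathway gene past the limits is counted but not reported here. Tables were made in Python with pandas and figures with matplotlib.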

Additional observations from a re-analysis of the deposited data

How the results depend on the processing

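The Gabra5 log2 fold change stayed past the limits in 16 of 16 alternatives (1.46 to 2.21), with 1.82 to 2.21 when a library was left out. Gabra4, Gabrb2 and Gabrg1 kept their direction in all of theirs and were called in none, although Gabrb2 ran from -0.68 to -0.30 when a library was left out and had an unadjusted p of 0.0447 (edgeR, adjusted p = 0.556) with the replicate block, and Gabra4 was over an unadjusted p of 0.05 in 9 of 15. Gabrb1 lost its call in 8 of 15 alternatives. Its log2 fold change was 0.36 with limma on log2(FPKM + 1), 0.80 with log2(FPKM + 0.1), 0.90 with the replicate block and 0.51 to 1.24 when a library was left out. Hence 1 gene was called higher in place of 2 with both limma fits, with the replicate block, with a filter of 1 FPKM, which removed Gabrb1 and Gabra4, and 1 to 2 when a library was left out. The number at an adjusted p under 0.05 was 1 in place of 0 with DESeq2, edgeR's exact test and protein-coding rows alone. Over all rows these fits gave 751 of 26663, 231 of 26663 and 78 of 13712. With log2(FPKM + 1), 0 pathway genes in place of 2 were called higher. No alternative called a member or a pathway gene lower. The sign turned for Gabra3 with RLE size factors (-0.0006047) and with DESeq2 (-0.0006304), with the replicate block (-0.0020) and when a library was left out (-0.082 to 0.045), and for Gabra2 when a library was left out (-0.034 to 0.135), all far from the limits. The cause of these moves was not tested, beyond the fewer rows or samples that some fits hold. The replicate block changed no call but that of Gabrb1. Same-numbered libraries did not deviate together (correlations -0.011, -0.026 and -0.075, where different numbers gave -0.022 to 0.049). No pairing by number was seen, but 3 libraries per group cannot exclude it. Counts of 56 to 252 reads for Gabrb1 and Gabra4 limit what can be said of them.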
